A study of Mus musculus with 4 samples.

Results

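Imprinted genes are expressed mainly from the allele inherited from 1 parent, and 36 of them, with the control regions of their clusters, were examined for accessible chromatin in mouse embryonic stem cells (ESCs). The genes were given as a list of symbols, and all 36 were found among the 55413 genes that the GENCODE annotation, release M21, places on assembled chromosomes. Of the 36, 13 are maternally expressed, 22 are paternally expressed, and Gnas, which makes transcripts of both kinds, was put in neither group. The rule that names the genes uses no accessibility value.

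Genomic imprinting begins in the germ line, where the egg or the sperm methylates a set of CpG-rich control regions. The mark then survives the wave of demethylation in the early embryo, because the zinc-finger proteins ZFP57 and ZFP445 bind the methylated copy and recruit TRIM28, SETDB1 and DNA methyltransferases. Many control regions are promoters of long non-coding RNAs or of genes copied into an intron of a host gene, and the unmethylated copy is the one that can be transcribed. The region between H19 and Igf2 instead binds CTCF on its unmethylated maternal copy and insulates Igf2 from shared enhancers.

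Chromatin was assayed by ATAC-seq, in which a transposase cuts accessible DNA and inserts sequencing adapters, and a peak is an interval where a peak caller found a pile-up of fragments. The cells were E14 ESCs in serum and leukaemia inhibitory factor, infected with a pLKO lentivirus carrying a short hairpin against GFP (shGFP, 1 library) or luciferase (shLuc, 3 libraries). Both hairpins lack a target in the mouse genome and are controls; the cells of both groups had 8 h of virus, 2 days of selection in 2 µg/ml puromycin and 2 more days of culture. No genetic change other than the integrated vector is labelled in either group, and nothing in the labels says whether the replicates came from separate infections. The lists held 41943 peaks in shGFP and 17860, 41401 and 31585 in shLuc replicates 1, 2 and 3, and their depth is unknown because they carry no counts or scores. The lists hold no sequence variants either, so a peak cannot be given to the maternal or the paternal allele.

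The ESC label was set beside marker promoters. A peak lay within 1 kb of a start of 6 of 13 ESC markers in shGFP and of 2, 6 and 6 of 13 in the shLuc libraries. Zfp42 and Tfcp2l1, ESC transcription factors, had one in all 4 libraries, while Pou5f1, Nanog, Sox2, Tdgf1, Dppa5a and Dppa4 had none listed in any. Of 6 fibroblast feeder markers, 3 had a promoter peak in shGFP and 2, 4 and 2 in shLuc, with Col1a1 and Thy1 in all 4 libraries. Of 4 endoderm markers 1, 1, 2 and 1 had one (Sox17 in all 4), and of 3 neural markers 0, 0, 1 and 0. Because defining ESC genes had no listed promoter peak, the lack of a listed peak at an imprinted gene cannot be read as closed chromatin.

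The control regions were described first by sequence. Below are stretches of 120 bases on the + strand of GRCm38 (mm10), clear of annotated untranslated exons and chosen for the most copies of the word TGCCGC, which ZFP57 binds when its CpG is methylated. They were taken from the part of the peaks shared by all 4 libraries or, where no peak was listed, from the whole window. Capitals mark that word on either strand, so that GCGGCA is the same word on the other strand. The first 3 lie inside the peaks that all 4 libraries share at the promoter of Mcts2 and at the internal promoters of Inpp5f and Grb10.
Mcts2 (chr2:152686828-152686947): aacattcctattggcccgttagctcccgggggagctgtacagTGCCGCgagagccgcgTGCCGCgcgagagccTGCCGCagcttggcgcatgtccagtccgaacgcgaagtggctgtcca
Inpp5f (chr7:128687995-128688114): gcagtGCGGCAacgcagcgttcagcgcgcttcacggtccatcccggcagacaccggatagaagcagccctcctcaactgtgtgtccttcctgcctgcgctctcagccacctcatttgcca
Grb10 (chr11:12025639-12025758): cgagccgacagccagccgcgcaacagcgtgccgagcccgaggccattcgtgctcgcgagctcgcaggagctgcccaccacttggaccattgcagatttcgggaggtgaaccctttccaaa
The next 3 lie in control regions where no library listed a peak, the paternally methylated region between Dlk1 and Meg3 and the promoters of Peg3 with Usp29 and of Snrpn.
Dlk1/Meg3 (chr12:109528333-109528452): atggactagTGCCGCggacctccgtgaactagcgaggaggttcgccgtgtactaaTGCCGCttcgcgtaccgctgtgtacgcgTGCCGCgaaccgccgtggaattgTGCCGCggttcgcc
Peg3/Usp29 (chr7:6730057-6730176): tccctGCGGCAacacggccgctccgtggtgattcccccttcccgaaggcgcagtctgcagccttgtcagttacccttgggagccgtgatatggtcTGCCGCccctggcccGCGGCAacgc
Snrpn (chr7:60004332-60004451): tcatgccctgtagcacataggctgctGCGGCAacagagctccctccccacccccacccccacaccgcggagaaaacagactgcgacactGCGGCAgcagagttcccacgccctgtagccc
The last is from the H19/Igf2 region, also without a listed peak, and its capitals mark GGNGGCAG, the core of the CTCF motif, in reverse orientation.
H19/Igf2 (chr7:142580253-142580372): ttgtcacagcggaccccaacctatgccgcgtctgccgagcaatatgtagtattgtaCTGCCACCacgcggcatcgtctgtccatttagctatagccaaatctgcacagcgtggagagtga
The Mcts2 stretch holds 3 copies of TGCCGC and 14 CpG, the Inpp5f stretch 1 copy and 9 CpG, and the Grb10 stretch no copy and 12 CpG. The Dlk1/Meg3 stretch holds 4 copies and 19 CpG, the Peg3/Usp29 stretch 3 and 11, and the Snrpn stretch 2 and 6. The stretches were chosen for this word, so these counts are no comparison between regions. Of 59927 windows around the starts of all genes, 31.5% hold TGCCGC and 54.8% hold GGNGGCAG on either strand, so a match by itself marks no binding site.

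At 19 control regions, a peak was listed in all 4 libraries at 6, in 3 libraries at 2, in 2 at 1, in 1 at 2 and in no library at 8. No deposited file gives the extent of these regions, and each is a window placed on the annotation. It covers 1 kb either side of the starts of the promoter concerned, 2 to 4 kb upstream of H19, or 10 to 16 kb upstream of Meg3. Their ratios of observed to expected CpG ran from 0.4 to 0.853. Start windows of all genes had a peak in all 4 libraries in 46.8% at ratios of 0.4 to 0.6. At 0.6 to 0.8 the share was 66.3%, and above that 70.8%. The windows upstream of H19 and Meg3 are not start windows. By library, 8 regions had a peak in shGFP and 8, 9 and 9 in shLuc replicates 1, 2 and 3, so the shortest list, shLuc replicate 1, held as many as the longest. All 11 regions with a peak in at least 1 library were among the 17 methylated on the maternal allele, and the 2 paternally methylated ones had none. Those 2 are the windows upstream of H19 and Meg3, while the 17 are start windows, so methylated allele and placement cannot be told apart. The share of all start windows with a peak in at least 1 library, or in none, was not computed.

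**Figure D1:**
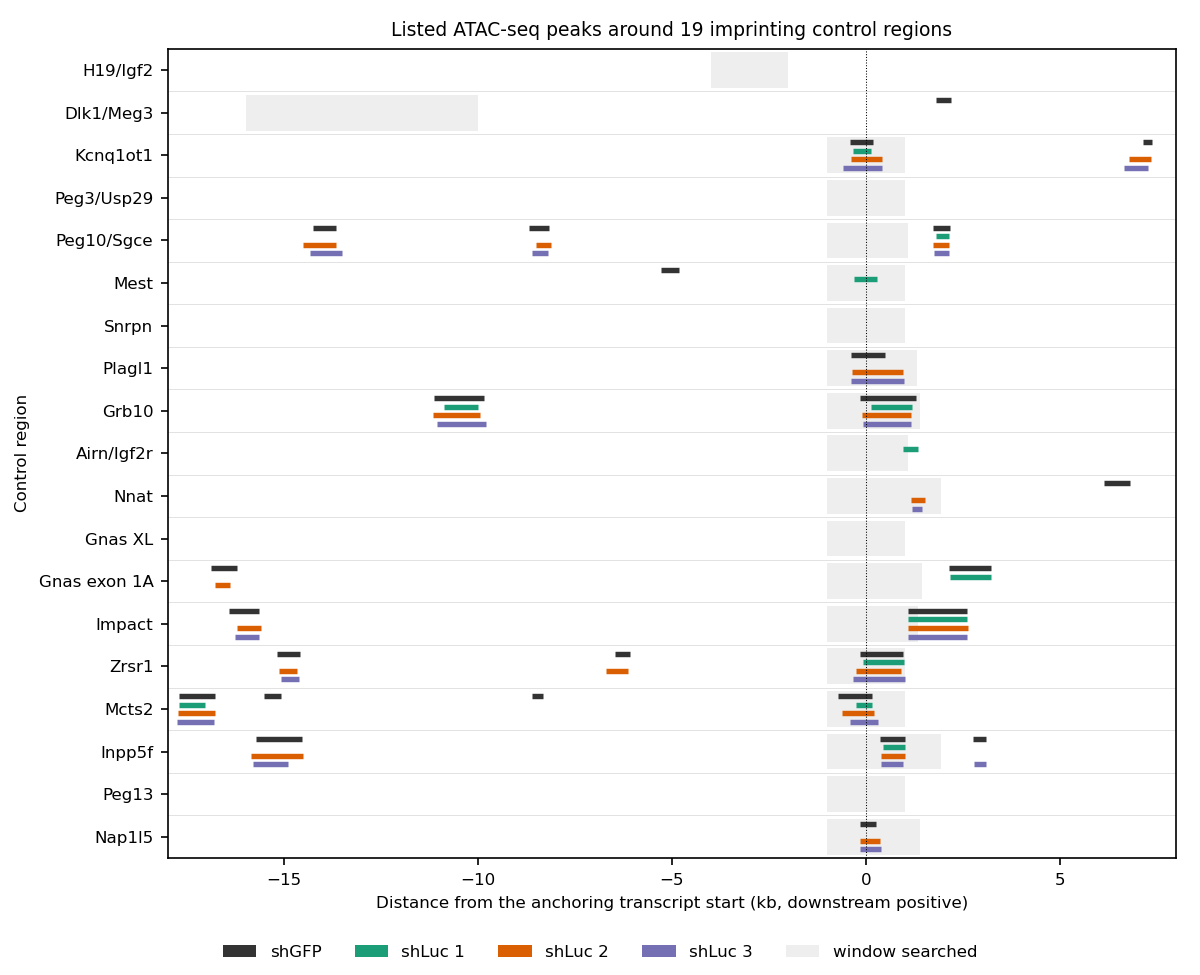
Listed ATAC-seq peaks around 19 imprinting control regions. Each row is 1 region, bars are peaks of the 4 libraries (colours) by distance in kb from the anchoring transcript start, with downstream positive, and grey marks the window searched. At 6 regions all 4 libraries have a bar over the window, and 8 windows have none.

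Genes that lie inside a host gene, with a control region at their own promoter, made up 1 kind, and 4 of the 5 had a peak in at least 2 libraries. The share of all start windows with a peak in at least 2 libraries was not computed, so this count is no trait of the kind. Zrsr1, a splicing-factor gene inside Commd1, had a peak over its start of 1118 bp in shGFP and 1063, 1157 and 1346 bp in the shLuc libraries. Mcts2, a gene for a translation factor inside H13, had 878, 426, 822 and 733 bp in the same order, with 424 bp common to all 4. Nap1l5, a histone-chaperone-like gene inside Herc3, had 415 bp in shGFP, none in shLuc replicate 1, and 524 and 548 bp in replicates 2 and 3. Nnat, a gene for a small membrane protein inside Blcap, had a peak of 369 bp in shLuc replicate 2 and 263 bp in replicate 3, and none in shGFP or replicate 1. Peg13, a non-coding gene inside Trappc9, had none, and the nearest peak to its window was 211520 bp away in shGFP and 211721, 39244 and 249076 bp away in shLuc.

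The promoters of the hosts themselves had calls of their own. H13, Herc3 and Commd1 had a peak at a start of their own in all 4 libraries. Trappc9 had 1 in shGFP and in shLuc replicates 2 and 3 while Peg13 had none. Blcap had 1 in shGFP only, while Nnat had its peaks in shLuc replicates 2 and 3.

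Internal promoters of longer genes were the second kind. Grb10 encodes an adaptor that restrains growth signalling, and its internal promoter had peaks of 1453 bp in shGFP and 1052, 1268 and 1246 bp in shLuc, with 1031 bp shared. A single start just upstream of it had no listed peak; the choice between these starts was settled after the values had been seen, and with the other start 5 control regions would have a peak in all 4 libraries. The main upstream Grb10 promoter had a peak in all 4 libraries as well, of 1285, 873, 1225 and 1259 bp. Inpp5f encodes a phosphoinositide phosphatase, and its imprinted internal promoter had peaks of 652, 578, 635 and 556 bp, with 502 bp shared. Its upstream promoter, whose transcript is expressed from both alleles, had 1154, 927, 952 and 971 bp. Impact, a regulator of translation, had the most constant peak, of 1530, 1520, 1548 and 1513 bp, of which 1507 bp were shared by all 4. That peak is centred 1493 to 1502.5 bp downstream of the starts on which the window was placed and reaches only its edge, but it overlaps a later cluster of Impact starts. In it, 16.4% of the 32-base words occur more than once in the genome. Copies inside the peak itself count, so a copy at another locus is not shown. Plagl1, a zinc-finger growth regulator, had 875 bp in shGFP, none in shLuc replicate 1, and 1330 and 1378 bp in replicates 2 and 3. Its upstream promoter was listed in the same 3 libraries.

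Non-coding RNA promoters that silence neighbours differed. Kcnq1ot1, an antisense RNA that silences genes around Kcnq1 on the paternal chromosome, had a peak of 601 bp in shGFP and 471, 825 and 1007 bp in shLuc, with 471 bp common to all. Airn, which does the same at Igf2r, had a peak only in shLuc replicate 1, of 410 bp and centred 1063.5 bp downstream of its start. Igf2r, the receptor that clears IGF2, had a peak at its main promoter in all 4 libraries, of 1164, 1060, 896 and 1099 bp.

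Other promoters with a control region had a peak in 1 library or none. Mest, which encodes a hydrolase-like protein of the mesoderm, had a peak of 602 bp over the control promoter in shLuc replicate 1 alone. Its promoter call in shGFP came from a different peak, of 478 bp, between upstream starts. The control regions at Peg3/Usp29, Peg10/Sgce, Snrpn, Gnas XL and Gnas exon 1A had none in any library. At Peg10, a retrotransposon-derived gene of the placenta, an intron peak at chr6:4749027-4749467 was in all 4 libraries, with 323 bp shared, and began 621 to 712 bp beyond the window. At Gnas, which encodes the stimulatory G-protein alpha subunit, the promoter of exon 1, which is not a control region, had a peak of 1088 bp in shGFP and 1076 bp in shLuc replicate 1, and none in the other two.

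The paternally methylated regions and Snrpn lay 11822 bp or more from any listed peak, as did some other maternally methylated windows. Peg13, given above, was one of these. For Peg3/Usp29 the nearest peak lay 22044 bp away in shGFP and 28456, 22047 and 28464 bp away in shLuc. The nearest peak to the H19/Igf2 window lay 28564 bp away in shGFP and 28662, 28655 and 28692 bp away in shLuc, nearly the same in all 4 lists. For the Dlk1/Meg3 window the distances were 11822, 24572, 63646 and 63707 bp. For Snrpn, which encodes a splicing protein and lies in the Prader-Willi cluster, they were 156635, 101608, 156670 and 156645 bp.

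The merged peak regions at control regions were rich in CpG and in TGCCGC. Their median ratio of observed to expected CpG was 0.792 (range 0.404 to 1.02, n = 11), against 0.575 at 19 other promoter regions of imprinted genes and 0.671 over 17169 promoter regions of all genes. TGCCGC occurred in 81.8% of the 11 regions at 3.76 per kb, in 42.1% of the 19 at 0.929 per kb, and in 46.1% of all promoter regions at 0.78 per kb. The CTCF core word was in 9.09% of the 11, in 47.4% of the 19 and in 43.7% of all promoter regions. TGCCGC did not separate regions with peaks from those without, since all 8 windows with no listed peak held it, at 2.14 per kb. Windows with a peak in all 4 libraries held it at 1.31 per kb, and all windows together at 2.17 per kb. The 5 windows with a peak in 1 to 3 libraries held 5 to 12 copies each, beside 1 to 10 in the 8. The windows without peaks had a median CpG ratio of 0.633 (n = 8), and those with a peak in all 4 had 0.622 (n = 6).

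Over all 36 genes, a peak within 1 kb of any transcript start was found for 21 in shGFP and for 12, 17 and 15 in shLuc replicates 1, 2 and 3. These are 58.3%, 33.3%, 47.2% and 41.7% of the genes, beside 48.8%, 36.5%, 48.3% and 43.9% of all 31868 genes of the same biotypes. Most of the imprinted genes are protein-coding, and protein-coding genes alone had higher shares, of 60.7%, 46.8%, 60.3% and 55.1%. The imprinted genes have more clusters of starts (median 2 against 1) and are longer (median 25050.5 against 12911 bp), and the part of either in these shares was not tested. A promoter peak in all 4 libraries was found at 9 of 36 (25%), against 32.9% of all genes and 42.5% of protein-coding genes. None in any library was found at 13 of 36 (36.1%), against 47.4% of all genes. In 1 to 3 of the libraries a promoter peak was found at 14 of 36 (38.9%), against 19.6% of all genes.

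Peaks in the gene body were found for 27 genes in shGFP and 15, 25 and 21 in shLuc, that is 75%, 41.7%, 69.4% and 58.3%, against 56.3%, 40.5%, 55.9% and 50.5% of all genes. In all 4 libraries the count was 13 (36.1% against 37%), and in no library 8 (22.2% against 39.4%). Within 20 kb of the gene a peak was found for 31, 17, 29 and 27 genes, that is 86.1%, 47.2%, 80.6% and 75%, against 79.1%, 60.1%, 79.2% and 73.2%. It was found in all 4 libraries for 15 (41.7% against 57.1%) and in no library for 5 (13.9% against 16.9%). Within 20 kb the share in shLuc replicate 1 was thus below that of all genes, and those in the other 3 libraries were above it.

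**Figure D2:**
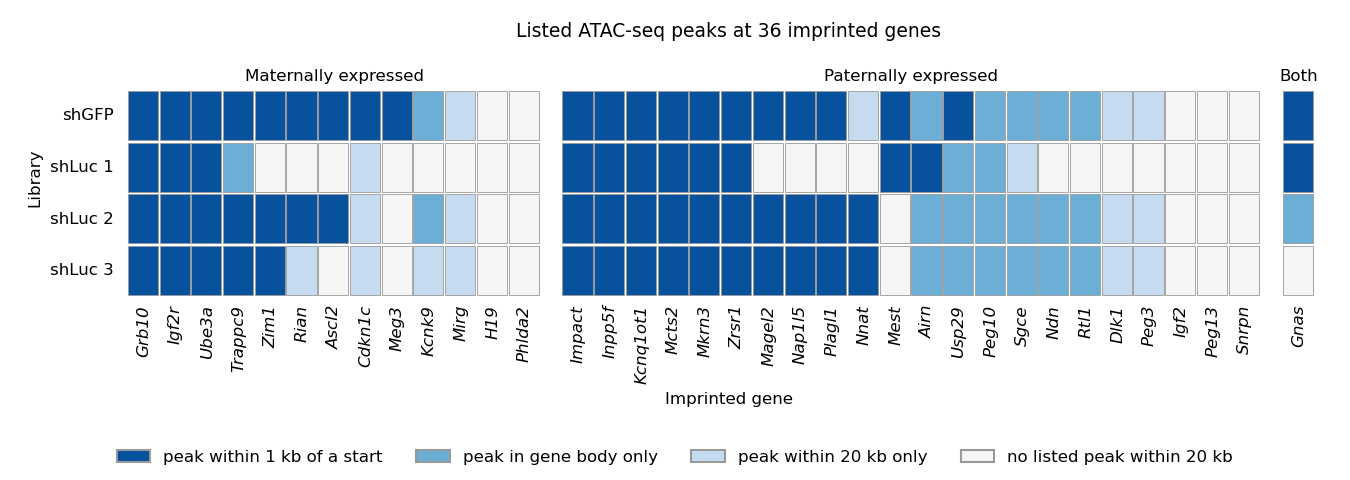
Listed ATAC-seq peaks at 36 imprinted genes, by library (rows) and gene (columns, grouped by the expressed allele). Dark blue marks a peak within 1 kb of a start, mid blue a peak in the gene body only, pale blue a peak within 20 kb only, and white no listed peak within 20 kb. The 9 genes with 4 dark cells and the 5 with 4 white cells are those named in the text.

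The 9 genes with a promoter peak in all 4 libraries were Kcnq1ot1, Ube3a, Mkrn3, Grb10, Igf2r, Impact, Zrsr1, Mcts2 and Inpp5f. Ube3a encodes the ubiquitin ligase lost in Angelman syndrome, and its main promoter had peaks of 1483 bp in shGFP and 1180, 1409 and 1438 bp in shLuc. Mkrn3, a makorin ubiquitin ligase of the Prader-Willi cluster, had 1662, 292, 1107 and 1367 bp, and the 292 bp of shLuc replicate 1 were those shared by all. Ube3a, Grb10 and Igf2r are imprinted in some tissues or stages and expressed from both alleles in others.

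A further 5 genes had a promoter peak in every library except shLuc replicate 1, namely Zim1, Magel2, Plagl1, Trappc9 and Nap1l5. Zim1, a zinc-finger gene beside Peg3, had 2 promoter peaks in each of the 3 libraries, the wider of 729, 746 and 607 bp. Magel2, a MAGE-family regulator of ubiquitination, had 858, 976 and 904 bp. Trappc9, a subunit of a vesicle-tethering complex, had 989, 975 and 962 bp. When shLuc replicate 1 was left out, 14 genes (38.9%) had a promoter peak in all libraries, against 41.4% of all genes. The same counts were 20 in the gene body (55.6% against 47.8%) and 27 within 20 kb (75% against 70.9%).

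The remaining calls were split between the hairpins. In shGFP alone a promoter peak was listed for Cdkn1c, a cyclin-dependent kinase inhibitor (596 bp), Meg3, a non-coding RNA of the Dlk1 cluster (369 bp), and Usp29, a deubiquitinase gene (385 bp). The Usp29 peak lies at a late start far from the Peg3 promoter, and 51.7% of its 32-base words are repeated in the genome. Ascl2, a transcription factor of the trophoblast, had 1944 bp in shGFP and 1245 bp in shLuc replicate 2. Rian, a non-coding RNA that hosts small nucleolar RNAs, had 422 and 440 bp in the same libraries. No gene had a promoter peak in all 3 shLuc libraries and none in shGFP. The share of all genes with each of these patterns was not computed, so the patterns are no result about imprinted genes.

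No promoter peak was listed for 13 genes. H19, a non-coding RNA, Igf2, a fetal growth factor, Phlda2, which restrains placental growth, Snrpn and Peg13 had no peak even within 20 kb, in none of the 4 lists. Peg3, a zinc-finger gene, had 2, 0, 2 and 2 peaks within 20 kb but outside its body, and the peaks nearest to it belong to the Zim1 starts. Dlk1, a Notch-like ligand, and Mirg, a microRNA host gene, each had 1 such peak in every library except shLuc replicate 1. Ndn, a MAGE gene, had a peak in its exon, more than 1 kb downstream of the annotated start, at chr7:62348116-62349216 in shGFP and in shLuc replicates 2 and 3. Its lack of a promoter peak rests on 1 annotated start, whose window has a CpG ratio of 0.162, beside 0.595 in the peak region. Whether another start lies at the peak was not tested. Rtl1, a retrotransposon-derived placental gene, had 1 body peak in shGFP and in shLuc replicates 2 and 3. Of the 32-base words of that peak, 50.4% occur more than once in the genome, copies inside the peak included. Sgce, which encodes epsilon-sarcoglycan, had 4 body peaks in those 3 libraries and none in shLuc replicate 1. Kcnk9, a potassium channel gene, had a body peak in shGFP and shLuc replicate 2.

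Members are not independent. Peg3 shares its promoter with Usp29 and Peg10 with Sgce, Airn starts inside Igf2r, and 8 of the 90 peak regions found within 20 kb of any of the 36 genes lay near a pair of them. Of the 90 regions, 18 were in all 4 libraries, 33 in 3, 19 in 2 and 20 in 1. Of the 33, 31 were missing from shLuc replicate 1, and their median CpG ratio was 0.276, against 0.784 for the 18. The 26 regions listed in shLuc replicate 1 had a median CpG ratio of 0.784, and those of shGFP and shLuc replicates 2 and 3 had 0.414 (n = 76), 0.347 (n = 70) and 0.461 (n = 57). The list of shLuc replicate 1 is the shortest. The split by library was not computed over all 52714 merged peak regions, so it is no trait of imprinted genes.

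The comparison of hairpins asks whether a result at these genes depends on the control used. A promoter peak was found at 21 genes with shGFP and at 14.7 ± 2.52 (SD, n = 3) with shLuc, a difference of 6.33, and shGFP lay above all 3 shLuc libraries. For the gene body the values were 27 and 20.3 ± 5.03, and for 20 kb 31 and 24.3 ± 6.43, again with shGFP highest. The shGFP list is also the longest, and with only as many of the widest peaks taken from each list as the shortest holds, the promoter counts became 14 in shGFP and 12, 14 and 13 in shLuc. With 1 library against 3, an exact permutation test cannot give a p below 0.25, so none was run. The hairpin and the single shGFP library cannot be told apart.

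Maternally and paternally expressed genes did not differ in the same direction in every library. A promoter peak was found at 9 of 13 maternally expressed genes (69.2%) in shGFP, against 11 of 22 paternally expressed (50%). In shLuc the shares were 23.1% against 36.4% in replicate 1, 53.8% against 45.5% in replicate 2 and 38.5% against 45.5% in replicate 3. The maternally expressed genes had the higher share in shGFP and shLuc replicate 2 and the lower in the other two. In all 4 libraries the counts were 3 of 13 and 6 of 22. The 3 were Ube3a, Grb10 and Igf2r, and without genes whose imprinting is limited to some tissues or transcripts the counts were 0 of 8 and 4 of 19. The genes left out, by a list set by hand, were Ube3a, Grb10, Igf2r, Kcnk9, Trappc9, Inpp5f, Impact and Dlk1. The list holds all 3 maternally expressed genes with the call, and Inpp5f and Impact of the 6, so the 0 follows from that choice.

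In the gene body, 76.9% of maternally and 72.7% of paternally expressed genes had a peak in shGFP. In the shLuc libraries the maternal shares were 30.8%, 61.5% and 38.5%, and the paternal ones 45.5%, 72.7% and 72.7%. Within 20 kb the maternal shares were 84.6%, 38.5%, 76.9% and 69.2% over the 4 libraries and the paternal ones 86.4%, 50%, 81.8% and 81.8%, so the paternal share was higher in each. Maternally expressed genes had a median length of 30726 bp and paternally expressed ones 14631.5 bp. Genes are not replicates and some share starts, so no test of this difference was made.

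**Figure D3:**
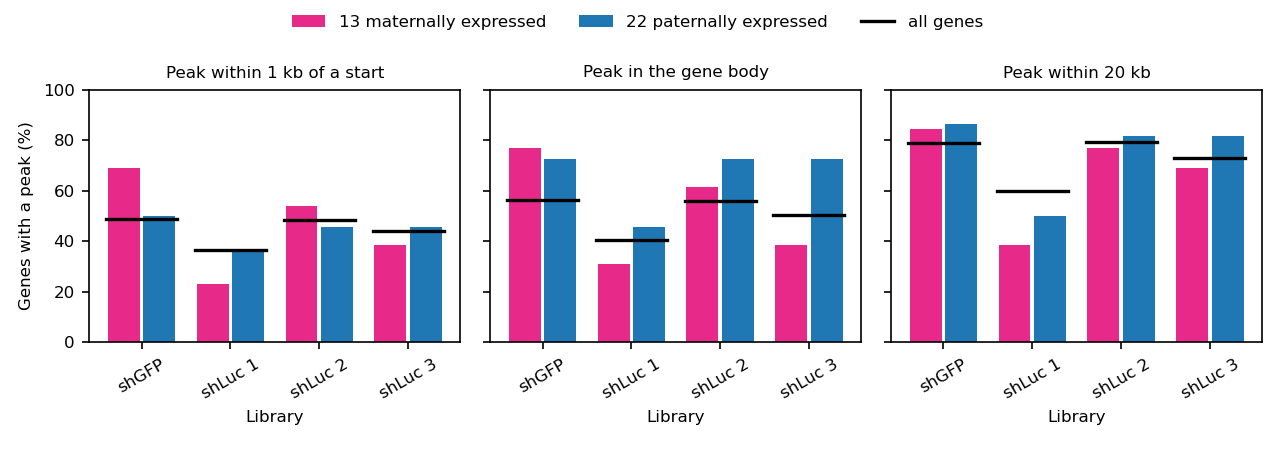
Share of 13 maternally (pink) and 22 paternally (blue) expressed genes with a listed peak, in percent, by library and by distance class; black lines give the share of all 31868 genes. In the left panel the pink bar is above the blue one in shGFP and shLuc replicate 2 and below it in the other libraries.

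CpG content went with the calls. Of 24 start windows of the imprinted genes with a CpG ratio of 0.6 or more, 8 held a peak in each of the 4 libraries and 10 held none, while 67.3% of 8829 such windows of all genes had one in all 4. The 10 windows without a peak belong to Gnas, Igf2, Kcnk9, Peg10, Peg13, Peg3, Phlda2 and Sgce, and some of these share a promoter. Of 81 windows with a lower ratio, 5 held a peak in each of the 4 libraries and 61 held none. Of 51098 such windows of all genes, 9.89% had one in all 4. For all genes the share of windows with none was not computed, so the 10 and the 61 have no baseline. The limit of 0.6 is the usual one for a CpG island and was taken after the values had been seen.

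**Figure D4:**
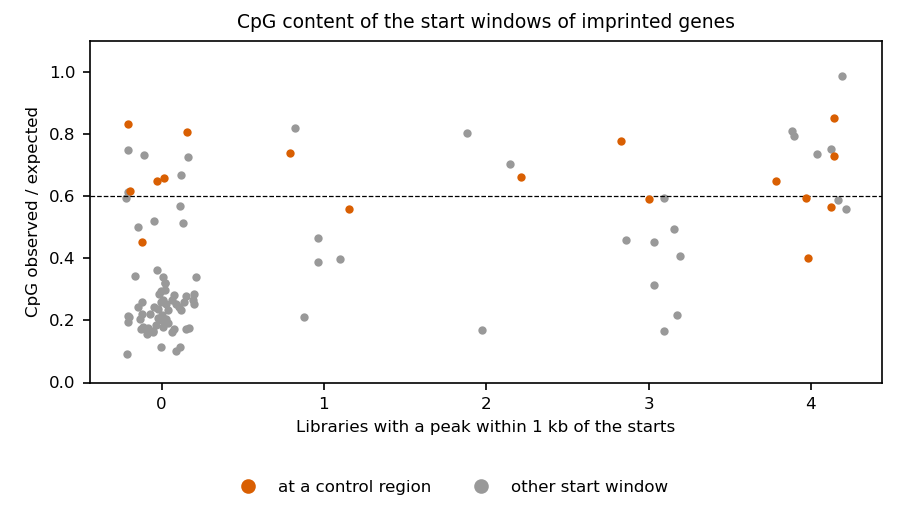
Ratio of observed to expected CpG in the start windows of the 36 genes against the number of libraries with a peak there; points are spread sideways for legibility, orange marks windows at control regions, and the dashed line is 0.6. Above the line, 8 windows lie at 4 libraries and 10 at 0. The share of all genes at 0 was not computed.

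Genes that maintain imprints were examined next. Of 21 such genes, 18 had a promoter peak in shGFP and 16, 17 and 14 in shLuc, that is 85.7%, 76.2%, 81% and 66.7%. All 21 are protein-coding, and the shares of protein-coding genes were 60.7%, 46.8%, 60.3% and 55.1%. In all 4 libraries 12 had one (57.1%), beside 42.5% of protein-coding genes. These 12 included Zfp57 and Zfp445, the binders of methylated control regions, Dnmt1, the maintenance methyltransferase, Tet1 and Tet2, which oxidise methylcytosine, and Ctcf. Trim28 lacked a listed peak in shLuc replicate 3, and Setdb1, which methylates histone H3 at lysine 9, in replicate 1. Uhrf1, the partner of DNMT1, and Dnmt3l, a cofactor of the de novo enzymes, had a peak in shGFP only. Dppa3, which protects the maternal genome from demethylation, had none in any library.

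Of 41 other genes in the imprinted clusters, 26 had a promoter peak in shGFP and 21, 25 and 24 in shLuc. These are 63.4%, 51.2%, 61% and 58.5%, beside 48.8%, 36.5%, 48.3% and 43.9% of all genes. Protein-coding genes alone had 60.7%, 46.8%, 60.3% and 55.1%, closer to the shares of these genes. In all 4 libraries the count was 19 (46.3%, against 32.9% of all genes and 42.5% of protein-coding genes). In none it was 12 (29.3% against 47.4% of all genes). At the distal end of chromosome 7, Nap1l4, Cd81, Tssc4 and Osbpl5 had a peak in all 4, while Ins2, Th, Tspan32, Slc22a18 and Nctc1 had none. At the Peg10 cluster Casd1, Calcr and Ppp1r9a had one in all 4, and Asb4, like the Peg10/Sgce promoter, had none. At the Igf2r cluster a peak was listed in every library at Slc22a3, and none at Slc22a2 or Mas1.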

How the data were processed

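The authors deposited 1 list of ATAC-seq peaks per library, with chromosome, start and end and no score. Their processing notes name bcl2fastq, Bowtie2, MACS2 and mm10. The study's methods, under a heading shared with ChIP-seq, keep the best alignment and place ties at random, so a peak in repeated sequence may lie at another copy. The peak threshold and any shift of reads were not given in the sources used here.

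All peaks ended within the chromosomes of GRCm38. Peaks were overlapped by at least 1 bp with genes and transcript starts of GENCODE M21 (Python 3.11.15, numpy 2.4.6, numba 0.67.0, scipy 1.17.1, matplotlib 3.10.9). Scripts were tested on simulated data. Nearby starts of a gene were joined into clusters. Control-region windows were placed from general knowledge of each locus. The members and lists were chosen with earlier results of these data known. The genes given in full are those at control regions, those whose call differs between libraries and those with no peak. Alternatives changed the distances, the peaks kept, the libraries, the genes and the background.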

Additional observations from a re-analysis of the deposited data

How the results depend on the processing

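Of 69 recomputed results for the imprinted genes, 57 stayed within 1.5 times the reported count and 12 did not. With starts within 5 kb, 7 genes had no promoter peak in any library instead of 13, and Peg10 and Sgce were added to those with one in all 4. With the widest 50% of each list, 21 genes had no promoter peak, 3 paternally expressed genes and 3 control regions had one in all libraries, and the counts in all libraries were 7 for the gene body and 8 within 20 kb. Within 50 kb of the gene 27 genes had a peak in all libraries. Without the genes of limited imprinting named above, 0 maternally expressed genes had a promoter peak in all libraries, as that list holds all 3 that had one. Leaving out 1 shLuc library at a time gave 9 to 14 genes with a promoter peak in all libraries (maternally expressed 3 to 5), 13 to 20 in the gene body and 15 to 27 within 20 kb. Each highest value came without shLuc replicate 1. With windows of 500 bp, or the central 200 bp of each peak, 5 control regions had a peak in all 4 libraries; with equal list lengths 4 did. No paired analysis was possible, because 1 shGFP library and 3 shLuc libraries make no set of pairs. The share of all genes with a promoter peak in all libraries ranged from 19.6% to 42.5% over 7 alternatives. The unknown depth limits every lack of a listed peak. The causes were not tested.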

Other observations

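Of the 90 peak regions within 20 kb of the imprinted genes, 46 touched an exon, 34 lay in introns only and 10 were intergenic. Only shGFP listed 10 of them and only shLuc replicate 2 listed 8, while shLuc replicate 1 alone listed 2, both at control regions (Mest and Airn). No region was listed only in shLuc replicate 3 or missing only from shGFP. The same split over all 52714 merged peak regions was not computed, so these counts are no trait of imprinted genes. Usp29 had 8 body peaks in shGFP, 2 in shLuc replicate 1, 8 in replicate 2 and 3 in replicate 3, and 1 of them, at chr7:6759887-6760616, was in all 4 libraries with 348 bp shared. In 73 of the 90 regions no 32-base word was repeated in the genome, and in 8 over 10% of the words were.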
